A study of Homo sapiens with 2 samples.

Results

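Cardiomyocytes with TBX3 transcripts were compared with cardiomyocytes without them, within 1 culture differentiated from human embryonic stem cells of the line HES2 into pacemaker cells like those of the sinoatrial node (SANLPC). The sides were chosen by their TBX3 counts. TBX3-positive cells held at least 4 unique molecular identifiers (UMIs, 1 per captured transcript) of TBX3, and TBX3-negative cells held 0. Both sides were drawn from cells with at least 1000 genes, at most 25% mitochondrial UMIs, 8000 to 30000 RNA UMIs, at least 2000 CPM (counts scaled to a common total) of TNNT2, the cardiac troponin T, and at most 4 UMIs in all of VTCN1, GATA3, CLDN4 and WNT6, which are expressed in epithelial cells. Of 14829 barcodes, 4336 were such cardiomyocytes (29.2%). Of these, 1350 were TBX3-positive (31.1%), 1416 were TBX3-negative (32.7%), and 1570 with 1 to 3 TBX3 UMIs (36.2%) belonged to neither side. The cells had been stained with the barcoded antibody TotalSeq A0054 against human CD34 and sorted as live singlets, so each cell has transcript counts and a CD34 tag count. Both sides share the cell line, the culture, the stain and the sort, and they were told apart by the TBX3 count alone.

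TBX3 is a T-box transcription factor. In the embryonic heart it is expressed in the sinoatrial node and the rest of the conduction system, where it represses genes of the working myocardium such as NPPA and GJA5. In the developing node, a head that expresses TBX18 and lacks NKX2-5 is told apart from a tail that expresses NKX2-5. SHOX2 and ISL1 act with TBX3 in the node's gene programme. CD34 is a surface sialomucin known from blood progenitors and endothelium.

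The RNA and tag libraries came from the same cells, and 14808 of the 14829 barcodes held UMIs of both. All values therefore come from 1 culture, cells are not replicates, and no test across samples was possible. Intervals are exact at 95% and reflect counting error, not variation between cultures. The TBX3-positive cells summed to 23314384 RNA UMIs and the TBX3-negative cells to 23620624. Median depth was 16700.5 UMIs in TBX3-positive cells, 16105.5 in TBX3-negative cells and 17994.5 in 2912 epithelial-like cells of the same quality and depth, which held over 4 UMIs of the capped markers and under 500 CPM of TNNT2. These epithelial-like cells are given beside each share of cells as the level that free RNA could reach in genes they do not express themselves. The mitochondrial share had a median of 11.8% in TBX3-positive cells and 12.7% in TBX3-negative cells, and its part in the results was not tested.

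As a description of the selection, TBX3 had a median of 7 UMIs in TBX3-positive cells, with a range of 4 to 40, and a summed level of 517 CPM. Epithelial-like cells held a median of 1 TBX3 UMI. At the limits of the rule, the 298 cells with 3 TBX3 UMIs had a median CD34 tag of 151 UMIs, and the 254 cells with 4 had 188.5. NECAB1 was at 48.2 CPM just outside and 74.4 CPM just inside. The 793 cells with 1 TBX3 UMI had a median tag of 66, against 56 in the cells with 0, and ALDH1A1 was at 123 CPM against 92.8 CPM.

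The label of cardiomyocyte held on both sides. The atrial light chain gene MYL7 was at 14394 CPM in TBX3-positive and 11900 CPM in TBX3-negative cells, and MYH6, the atrial heavy chain, was at 8388 and 6180 CPM. The 6 cardiomyocyte markers ranged from a ratio of 0.932 for TNNI1 to 1.36 for MYH6. TNNT2, 1 of these 6, was required by the rule on both sides, so its presence gives no support to the label. The endothelial genes PECAM1 and CDH5 and the blood genes PTPRC, HBG1 and HBA1 were at 0 counts on both sides. The 11 epithelial markers summed to 168 CPM in TBX3-positive and 160 CPM in TBX3-negative cells, against 4741 CPM in epithelial-like cells; 4 of these 11 were capped by the rule.

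The summed counts of each side were scaled to CPM gene by gene, and the TBX3-positive level was divided by the TBX3-negative level. A gene was measured at 10 CPM or more in the side where it was higher, and it was called higher at a ratio of at least 1.5 or lower at 0.667 or below. Of 9032 measured genes, 238 were higher (2.64%) and 369 were lower (4.09%), while 8425 lay between. These shares, 2.64% and 4.09%, are the background for the counts of called genes in each list below. The median log2 ratio was 0.04, and 90% of genes lay between -0.49 and 0.41. Ratios of at least 2 were seen for 93 genes and ratios of 0.5 or below for 169.

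Among genes with at least 50 CPM in 1 side, the highest ratio was that of NECAB1, a neuronal calcium-binding protein, at 86.8 CPM in TBX3-positive and 17.99 CPM in TBX3-negative cells (4.82-fold, 95% interval 4.34 to 5.37). ALDH1A1, which makes retinoic acid, was at 391 and 92.8 CPM (4.21-fold, 4.02 to 4.42). CAPN3, a muscle calpain protease, was at 128 and 34.4 CPM (3.71-fold). KCNJ5, which forms part of the potassium channel opened by acetylcholine in the node and atria, was at 71.7 and 19.6 CPM (3.66-fold). GNAO1, a G protein alpha subunit, was at 80.9 and 23.3 CPM (3.47-fold). HAMP, the iron hormone hepcidin, was at 150 and 43.6 CPM (3.43-fold). PRDM6, a repressor known from smooth muscle, was at 63.1 and 18.6 CPM (3.40-fold). MYL3, an essential light chain of ventricular and slow muscle, was at 774 and 237 CPM (3.26-fold). All 8 of these genes were at 13.5 CPM or less in epithelial-like cells. The remaining 4 of the 12 highest ratios belonged to the metallothioneins MT1G, MT1E, MT2A and MT1X.

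**Figure D1:**
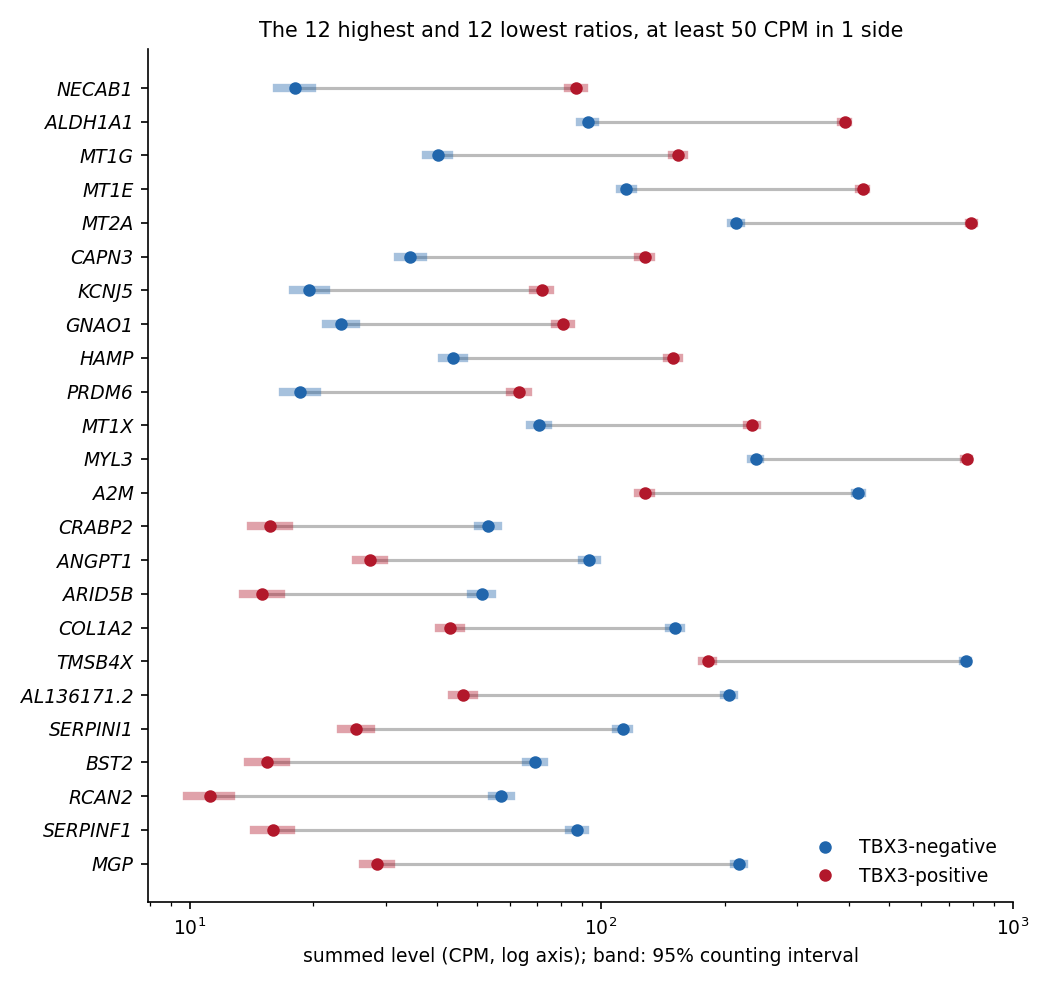
Summed level in CPM (log axis) of the 12 genes with the highest and the 12 with the lowest ratio among genes with at least 50 CPM in 1 side. Red points are the 1350 TBX3-positive cells, blue points the 1416 TBX3-negative cells, and bands are exact 95% counting intervals. No pair of bands overlaps, and the ratios run from 4.82 for NECAB1 to 0.132 for MGP.

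The same genes differed in the share of cells in which they were found. After each cell was thinned to 8000 UMIs, NECAB1 was found in 43.9% of TBX3-positive cells (41.3 to 46.6) and 12.4% of TBX3-negative cells (10.7 to 14.2), against 0.824% of epithelial-like cells. Without thinning these shares were 65.1%, 20.8% and 1.96%. ALDH1A1 was found in 72.4%, 25.2% and 3.06% of the 3 groups after thinning, and in 79.8%, 30.6% and 6.66% without it. KCNJ5 was found in 43.6%, 12.8% and 0.893% of thinned cells, and in 66.0%, 23.6% and 1.75% of unthinned cells. Each gene was thus found in a minority of TBX3-negative cells, above the background, and in a larger part of TBX3-positive cells.

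The metallothioneins are small cysteine-rich proteins that bind zinc and copper, and SLC30A1 exports zinc from the cell. Their genes are induced by zinc through the factor MTF1, which binds metal response elements. MT2A was at 794 CPM in TBX3-positive and 213 CPM in TBX3-negative cells (3.74-fold), MT1E at 432 and 115 CPM (3.75-fold), MT1X at 233 and 70.7 CPM (3.29-fold), and MT1G at 154 and 40.1 CPM (3.84-fold). MT3 was at 20.8 and 8.51 CPM (2.44-fold), and SLC30A1 at 213 and 77.8 CPM (2.74-fold, 2.60 to 2.89). These 6 of the 10 listed genes passed the filter on low levels and were called higher, against 2.64% of all measured genes. MT1F, MT1H and MT1M did not pass it, with 7.72, 3.60 and 5.40 CPM in TBX3-positive cells and 2.12, 1.23 and 1.14 CPM in TBX3-negative cells, and MT1A held 2 counts on each side. The metallothionein genes resemble each other in sequence, and how the counting treated reads that match more than 1 of them was not tested. MT2A was found in 64.0% of TBX3-positive, 35.7% of TBX3-negative and 37.8% of epithelial-like cells after thinning (74.2%, 48.6% and 59.0% without). Epithelial-like cells were at 94.4 CPM of MT2A, and whether that is their own expression or free RNA was not tested.

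Promoters are shown for the members of this group that a RefSeq table (GRCh38.p14) holds and that were measured, and for HAMP, which is known as a target of BMP signals. Each is the 250 bases before the start site. Capitals mark matches to TGCACNC or TGCGCNC, the core of the metal response element, on either strand in the first 3 sequences, and to GGCGCC, a core of BMP response elements, in HAMP. MT2A lies on chromosome 16 (chr16:56608334-56608583, plus strand), MT1X at chr16:56682220-56682469 (plus strand), SLC30A1 at chr1:211579162-211579411 (minus strand) and HAMP at chr19:35282278-35282527 (plus strand).
MT2A: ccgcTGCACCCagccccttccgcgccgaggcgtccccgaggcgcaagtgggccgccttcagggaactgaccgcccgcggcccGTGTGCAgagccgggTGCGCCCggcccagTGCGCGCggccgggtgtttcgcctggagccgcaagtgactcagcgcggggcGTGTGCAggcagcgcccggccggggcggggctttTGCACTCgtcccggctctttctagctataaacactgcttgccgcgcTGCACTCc
MT1X: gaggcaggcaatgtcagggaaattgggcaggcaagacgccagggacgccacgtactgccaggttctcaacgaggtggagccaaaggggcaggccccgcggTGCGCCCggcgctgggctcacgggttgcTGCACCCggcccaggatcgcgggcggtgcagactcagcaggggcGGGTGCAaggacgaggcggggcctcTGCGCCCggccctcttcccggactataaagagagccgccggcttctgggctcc
SLC30A1: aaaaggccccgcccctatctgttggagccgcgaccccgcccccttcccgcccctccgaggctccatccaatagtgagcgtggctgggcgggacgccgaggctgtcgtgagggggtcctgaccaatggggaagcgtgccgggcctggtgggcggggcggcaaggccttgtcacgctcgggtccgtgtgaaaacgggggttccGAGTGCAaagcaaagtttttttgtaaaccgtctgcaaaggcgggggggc
HAMP: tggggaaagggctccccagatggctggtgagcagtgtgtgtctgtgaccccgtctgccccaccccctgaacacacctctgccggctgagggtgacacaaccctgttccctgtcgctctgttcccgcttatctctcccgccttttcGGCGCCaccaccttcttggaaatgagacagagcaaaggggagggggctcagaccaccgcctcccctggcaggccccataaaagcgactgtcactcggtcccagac
The MT2A window held 7 matches to the metal response core, that of MT1X 4 and that of SLC30A1 1. The HAMP window held 1 match to GGCGCC. Of other BMP genes searched but not shown, BMP5, ID1, ID3 and MSX2 held 0 matches to GGCGCC. BMP4 held 1 match at 1 start site and 0 at its others. A match to the metal response core stood in 24.8% of all 35116 promoters of the table and in 41.3% of the 7288 measured genes with a promoter. That core stood in 45.8% of the 168 higher genes and in 39.3% of the 267 lower genes. GGCGCC stood in 16.4% of all promoters, 33.1% of measured, 31.0% of higher and 34.5% of lower genes. The T-box half-site AGGTGTGA stood in 0.786% of all promoters and 0.837% of measured genes, in 4 of the 168 higher genes and in 4 of the 267 lower genes. A gene with several start sites counted once if any window held a match. These are matches of letters only.

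On the low side, the smallest ratio was that of MGP, an inhibitor of calcification found in vessels and matrix-producing cells, at 28.6 CPM in TBX3-positive and 216 CPM in TBX3-negative cells (0.132-fold, 0.122 to 0.143). MGP was counted in 16.1% of TBX3-positive and 32.1% of TBX3-negative cells, but 10 cells held 60.1% of its UMIs in the positive side and 35.9% in the negative side, and epithelial-like cells were at 36.5 CPM. SERPINF1, a secreted serpin, was at 15.9 and 87.5 CPM (0.182-fold). RCAN2, a regulator of calcineurin, was at 11.2 and 57.2 CPM (0.196-fold). BST2, a membrane protein induced by interferon, was at 15.4 and 69.0 CPM (0.224-fold). SERPINI1, known as neuroserpin, was at 25.4 and 113 CPM (0.225-fold), and the transcript AL136171.2 at 46.2 and 205 CPM (0.225-fold). ANGPT1, the ligand of the endothelial receptor TEK, was at 27.5 and 93.7 CPM (0.293-fold), and A2M, a protease inhibitor, at 128 and 422 CPM (0.303-fold).

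The other 4 of the 12 lowest ratios belonged to genes whose level was higher in epithelial-like cells than on either side. TMSB4X, which binds actin monomers, was at 181 CPM in TBX3-positive, 770 CPM in TBX3-negative and 3181 CPM in epithelial-like cells. COL1A2, a collagen I chain, was at 42.9, 151 and 236 CPM, ARID5B at 15.01, 51.3 and 168 CPM, and CRABP2, which carries retinoic acid, at 15.7, 53.2 and 384 CPM. The part of free or co-captured RNA in these ratios was not tested. Leaving out 38 positive and 33 negative cells called as doublets left all 24 named genes past the fold. SERPINF1 was found in 10.8% of TBX3-positive and 39.8% of TBX3-negative cells against 2.71% of epithelial-like cells after thinning, and in 18.7%, 55.2% and 5.01% without it. SERPINI1 was found in 13.6%, 43.6% and 3.67% of thinned cells, and in 21.3%, 55.9% and 7.18% of unthinned cells.

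CD34 protein, read by the antibody tag, was higher in TBX3-positive cells. Tag UMIs had a median of 324.5 (quartiles 122 and 825) in TBX3-positive cells and 56 (38 and 92) in TBX3-negative cells, a ratio of medians of 5.79, and the means were 615 and 116. The 99th percentile of epithelial-like cells, 166 tag UMIs, was taken as a level, and 67.2% of TBX3-positive cells (64.6 to 69.7) lay over it, against 12.4% of TBX3-negative cells (10.7 to 14.2) and 1.03% of epithelial-like cells. Per 10000 RNA UMIs the medians were 206 and 35.9. The ranges overlapped: 141 TBX3-positive cells (10.4%) lay at or under the median of the negative side, and 92 TBX3-negative cells (6.50%) lay at or over the median of the positive side.

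The CD34 transcript followed the tag at a low level, with 400 UMIs in TBX3-positive and 32 in TBX3-negative cells, or 17.2 and 1.35 CPM (12.7-fold, 8.83 to 18.8). It was found in 12.1% of TBX3-positive, 1.20% of TBX3-negative and 0.275% of epithelial-like cells after thinning, and in 19.3%, 1.91% and 0.446% without it. The median tag was 935 UMIs in the 261 TBX3-positive cells with a CD34 UMI and 242 in the 1089 without. On the negative side it was 500 in the 27 cells with a CD34 UMI and 55 in the 1389 without. The tag thus differed between the sides also among cells in which no CD34 transcript was counted. Of the other cardiac surface genes on the list, PDGFRA, the receptor for platelet-derived growth factor, was at 70.9 and 33.0 CPM (2.15-fold). SIRPA, used to sort cardiomyocytes, was at 34.0 and 22.1 CPM (1.53-fold). NCAM1 at 0.842 and MCAM at 0.828 lay between, and the other 10 listed genes, among them the CD34 relatives PODXL and PODXL2, were under 10 CPM on both sides.

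**Figure D2:**
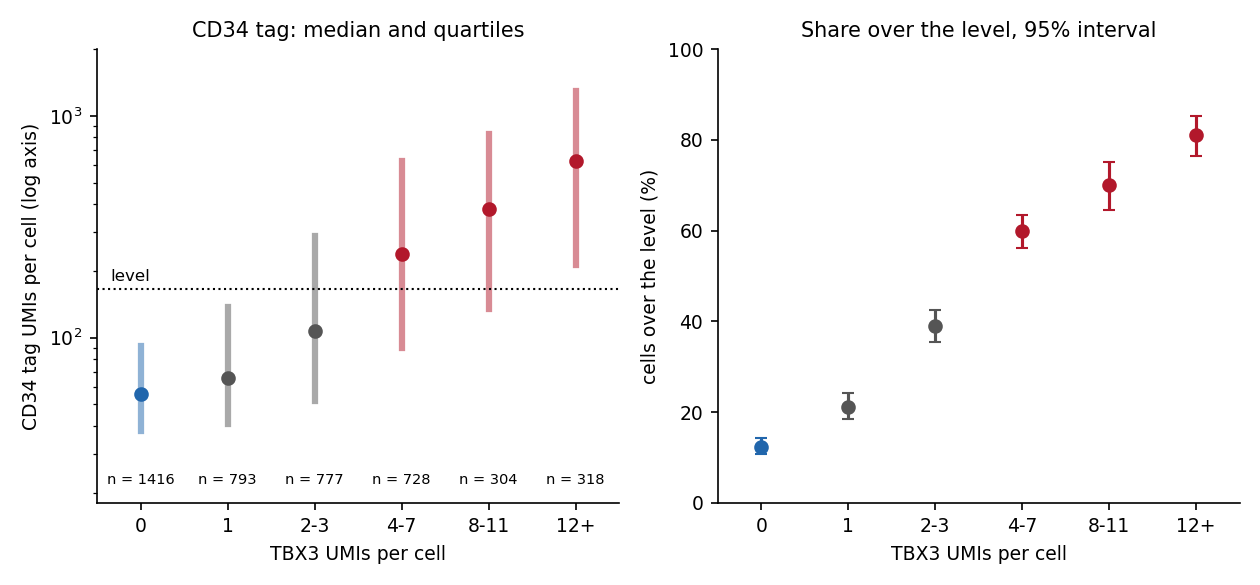
CD34 tag by TBX3 UMIs per cell, with blue for TBX3-negative cells, red for TBX3-positive cells and grey for those between. Left, median (points) and quartiles (bars) of tag UMIs on a log axis, rising from 56 to 626, with the dotted level of 166 UMIs; right, the share of cells over that level in percent with exact 95% intervals, rising from 12.4% to 81.1%.

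The tag was graded with TBX3. Its median was 56 UMIs in cells with 0 TBX3 UMIs, 66 with 1, 107 with 2 to 3, 238.5 with 4 to 7, 381.5 with 8 to 11 and 626 with 12 or more. Median RNA depth in these 6 groups ran from 16105.5 to 17288 UMIs. The share of cells over the level was 12.4%, 21.2%, 39.0%, 59.9%, 70.1% and 81.1% in the same order. For the 3 groups inside the positive side, the intervals of this share were 56.2 to 63.5, 64.6 to 75.2 and 76.4 to 85.3. Those intervals did not overlap, but they cover only the sampling of cells from 1 culture.

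Of the other T-box genes, TBX5, which activates cardiac and nodal genes, was at 212 CPM in TBX3-positive and 111 CPM in TBX3-negative cells (1.91-fold). TBX5 was found in 77.0% and 54.0% of cells after thinning (94.1% and 75.6% without), against 2.06% of epithelial-like cells (4.64% without). TBX2, the closest relative of TBX3, was at 27.9 and 40.4 CPM (0.690-fold, 0.624 to 0.763), and TBX18, a factor of the node head, at 98.3 and 81.8 CPM (1.20-fold). TBX20 at 0.893 and MGA at 1.15 also lay between. Thus 1 of 5 measured T-box genes was called higher, against 2.64% of all measured genes. The other 11 listed were under 10 CPM on both sides.

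The nodal factors themselves were on both sides. SHOX2 was at 582 and 543 CPM (1.07-fold, 1.05 to 1.10) and was found in 96.6% and 94.2% of thinned cells (99.6% and 97.6% without), against 6.59% of epithelial-like cells (12.6% without). ISL1 was at 74.2 and 65.2 CPM (1.14-fold), HAND2 at 170 and 156 CPM (1.09-fold), MEF2C at 177 and 161 CPM (1.10-fold) and GATA6 at 321 and 352 CPM (0.912-fold). Of the 8 measured sinus node factors, TBX5 alone passed the fold, where 2.64% of all measured genes were higher and 4.09% lower.

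Among homeobox, GATA, HAND and nuclear receptor factors, 6 of 15 measured genes were lower and 1 was higher. Over all measured genes, 4.09% were lower and 2.64% were higher. NKX2-5, a factor of working myocardium and of the node tail, was at 17.7 CPM in TBX3-positive and 36.8 CPM in TBX3-negative cells (0.481-fold, 0.427 to 0.541) and was found in 7.04% and 14.7% of thinned cells (9.85% and 20.1% without), against 0.309% of epithelial-like cells (0.515% without). HOPX was at 6.39 and 28.8 CPM (0.222-fold), GATA5 at 10.8 and 31.8 CPM (0.339-fold), ZNF503 at 16.3 and 53.6 CPM (0.305-fold) and MEIS2 at 158 and 242 CPM (0.651-fold). HAND1 was the gene called higher, at 10.3 and 5.80 CPM (1.77-fold), against 499.8 CPM in epithelial-like cells. MEIS2 at 217 CPM and ZNF503 at 55.7 CPM were also above TBX3-positive cells there, and the part of such RNA was not tested. With TNNT2 of at least 4000 CPM, MEIS2 was at 0.682 and no longer passed the fold. The nuclear receptors of venous and atrial cells, NR2F1 at 1.40 and NR2F2 at 1.14, lay between.

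Genes of working chamber muscle went in both directions. The connexin GJA5, which couples atrial cells, was at 8.88 and 36.2 CPM (0.246-fold). KCNA5, the channel of the atrial ultra-rapid potassium current, was at 5.32 and 23.4 CPM (0.228-fold). SLN, an atrial inhibitor of the calcium pump, was at 1.33 and 14.5 CPM, but 10 cells held 83.0% of its UMIs in the negative side. NKX2-5 was also on this list, of which 5 of 9 measured genes were lower, against 4.09% of all measured genes. PAM, which amidates peptides in atrial granules, was the gene called higher, at 661 and 266 CPM (2.49-fold, 2.41 to 2.56). NPPA, the atrial natriuretic peptide, was at 452 and 430 CPM (1.05-fold), SMPX at 389 and 379 CPM, and ADM at 101 and 102 CPM. GJA1, the connexin of working muscle, was at 1.03 and 9.19 CPM, under the limit for a call.

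GJA5 was found in 4.07% of TBX3-positive and 16.0% of TBX3-negative cells after thinning (7.04% and 23.0% without), against 3.503% of epithelial-like cells (7.11% without). Its share in TBX3-positive cells was thus close to that in epithelial-like cells. Whether epithelial-like cells express GJA5 themselves was not tested. KCNA5 was found in 3.70% and 16.7% of cells (7.70% and 27.1% without), and in 20.7% of epithelial-like cells (38.0% without). Epithelial-like cells were at 33.5 CPM of KCNA5, so for this gene they give no background. NPPA was found in 62.4% and 47.7% of cells (72.8% and 59.9% without), against 7.80% (16.3% without), a higher share on the positive side at nearly the same summed level.

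**Figure D3:**
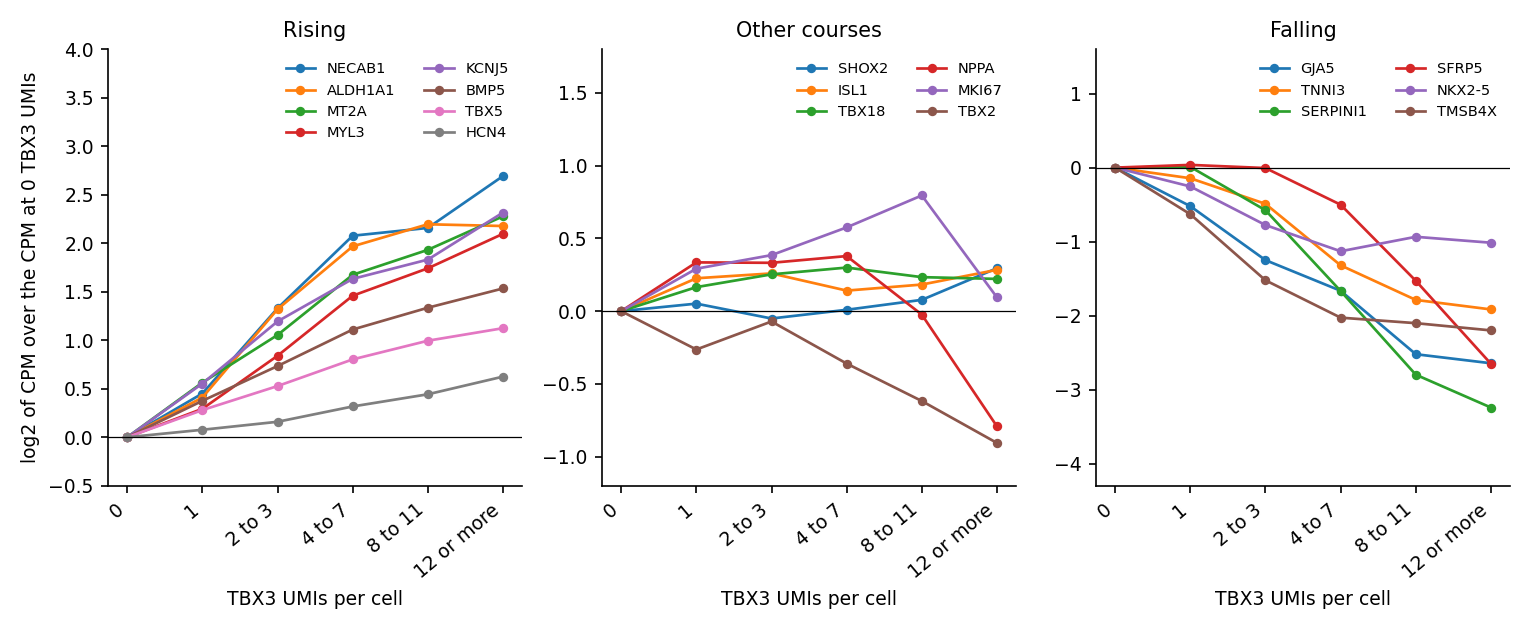
Log2 of the summed CPM in cells of each TBX3 UMI group over the CPM in cells with 0 TBX3 UMIs, for 20 genes in 3 panels. Genes in the left panel rise by up to 6.47-fold for NECAB1, those in the right panel fall, SERPINI1 from 113 to 11.9 CPM, and NPPA in the middle panel rises and then falls to 248 CPM.

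The levels of several of these genes were ordered over the 6 TBX3 groups. GJA5 was at 36.2, 25.2, 15.2, 11.4, 6.29 and 5.78 CPM from 0 to 12 or more TBX3 UMIs. NECAB1 was at 17.99, 24.6, 45.2, 75.9, 80.3 and 116 CPM, and TBX5 at 111, 135, 160, 194, 221 and 242 CPM. Other genes did not follow such an order at every step. NPPA was at 430, 542, 541, 559, 423 and 248 CPM, so it was highest in the middle groups and lowest in cells with the most TBX3. SFRP5, a secreted WNT inhibitor, kept 78.2, 80.2 and 77.9 CPM in the first 3 groups and then reached 55.2, 27.1 and 12.4 CPM. SHOX2 stayed between 525 and 667 CPM, and ISL1 between 65.2 and 79.4 CPM.

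The genes of the pacemaker current and calcium channels differed less. HCN4, the main pacemaker channel of the node, was at 121 CPM in TBX3-positive and 90.2 CPM in TBX3-negative cells (1.34-fold, 1.27 to 1.42), under the fold, and rose step by step from 90.2 to 139 CPM over the 6 TBX3 groups. HCN4 was found in 59.3% and 47.7% of thinned cells (81.3% and 68.9% without), against 2.78% of epithelial-like cells (6.28% without). CACNA1D, a calcium channel that helps drive the pacemaker potential, was at 145 and 79.8 CPM (1.82-fold), and CACNA1C, the calcium channel of working muscle, at 5.06 and 11.4 CPM (0.444-fold). The T-type channel CACNA1G at 1.41, the subunits CACNA2D2 at 1.46 and CACNA2D1 at 1.28, and the nodal connexin GJC1 at 1.18 lay between. Of 9 measured genes, 1 was higher and 1 was lower, against 2.64% and 4.09% of all measured genes.

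In the set for the acetylcholine-gated potassium current, which slows the node under vagal tone, KCNJ5 and GNAO1 were higher, as given above. Their partners were not: KCNJ3, the other channel subunit, was at 42.9 and 56.5 CPM (0.760-fold), and the muscarinic receptor CHRM2 at 123 and 101 CPM (1.22-fold). RGS6, which shortens the G protein signal, was lower, at 30.7 and 47.6 CPM (0.645-fold), though at 0.720 with TNNT2 of at least 4000 CPM. Of 9 repolarizing potassium and sodium channel genes, KCNG1 (1.805-fold) and the subunits of the ATP-sensitive channel KCNJ8 (1.53-fold) and ABCC9 (1.53-fold) were higher. Another 3 were lower, KCNA5 among them, where 2.64% of all measured genes were higher and 4.09% lower. KCNH2, of the rapid delayed rectifier current, was at 74.4 and 77.3 CPM.

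Calcium handling genes of the sarcoplasmic reticulum were close on both sides. The pump ATP2A2 had a ratio of 1.15, its inhibitor PLN 0.949, the release channel RYR2 0.887 and the exchanger SLC8A1 1.16. CASQ2, which buffers calcium in the store, was at 6.09 and 11.1 CPM (0.549-fold). It was called lower, with SLN, out of 12 measured genes, against 4.09% of all measured genes. Of 17 measured sarcomere genes, MYL3 was higher and TNNI3 and ACTA1 were lower, against 2.64% and 4.09% of all measured genes. TNNI3, the mature cardiac troponin I, was at 256 CPM in TBX3-positive and 749 CPM in TBX3-negative cells (0.342-fold, 0.332 to 0.352), and the immature form TNNI1 had a ratio of 0.932. TNNI3 was found in 56.7% and 80.2% of thinned cells (69.5% and 85.7% without), against 8.41% of epithelial-like cells (17.3% without). ACTA1, the skeletal actin, was at 0.515 and 13.3 CPM, with 75.6% of its UMIs in the negative side held by 10 cells.

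In smooth muscle type genes, MYH11, the smooth muscle heavy chain, was higher, at 1183 CPM in TBX3-positive and 368 CPM in TBX3-negative cells (3.21-fold, 3.14 to 3.29). TAGLN, an actin-binding protein, was lower, at 253 and 447 CPM (0.565-fold), and the other 7, among them ACTA2 at 0.791 and CNN1 at 0.913, lay between. Of 17 energy metabolism genes, MB, which stores oxygen, was higher (1.84-fold, 484 and 263 CPM) and CKB, the brain-type creatine kinase, was lower (0.569-fold). Over all measured genes, 2.64% were higher and 4.09% were lower.

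The BMP pathway held 4 ligands that were higher in TBX3-positive cells. BMP signals are known to induce Tbx3 and Tbx2 in the embryonic heart. BMP5 was at 397 and 164 CPM (2.42-fold, 2.33 to 2.51), BMP4 at 341 and 146 CPM (2.33-fold), BMP7 at 76.9 and 36.1 CPM (2.13-fold) and BMP2 at 78.3 and 44.6 CPM (1.75-fold). BMP4 was found in 83.8% and 52.9% of thinned cells (93.7% and 68.1% without), against 11.8% of epithelial-like cells (23.6% without). Of the response genes, ID1 (1.86-fold, 432 and 232 CPM) and MSX2 (1.70-fold, 19.5 and 11.5 CPM) were higher, with epithelial-like cells at 689 and 35.1 CPM. With TBX3 of at least 1 UMI, ID1 was at 1.449 and no longer passed the fold. ID2 at 1.12, ID3 at 1.20, SMAD6 at 1.05 and SMAD7 at 1.28 lay between, as did the receptors BMPR1A at 1.22 and BMPR2 at 1.01. In all, 6 of 17 measured genes were higher and 0 lower, against 2.64% and 4.09% of all measured genes.

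Among WNT genes, FRZB, a secreted inhibitor, was higher, at 15.3 and 2.62 CPM (5.83-fold, 4.44 to 7.77). FRZB was counted in 162 of 1350 and 38 of 1416 cells, and epithelial-like cells were at 27.2 CPM of FRZB and 652 CPM of SFRP2, above both sides. The related inhibitors SFRP5 at 38.4 and 78.2 CPM (0.491-fold) and SFRP2 at 10.4 and 26.7 CPM (0.389-fold) were lower, as was the ligand WNT11 at 6.56 and 10.1 CPM (0.649-fold). The other 9 of 13 measured genes lay between, where 2.64% of all measured genes were higher and 4.09% lower. In the retinoic acid set, ALDH1A1 was higher, while the binding protein CRABP2 (0.295-fold) was lower. ALDH1A2, the enzyme of the embryonic inflow tract and epicardium, was at 9.35 and 13.5 CPM, and the receptors RARA, RARB and RXRA had ratios of 0.977, 1.19 and 0.912.

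**Figure D4:**
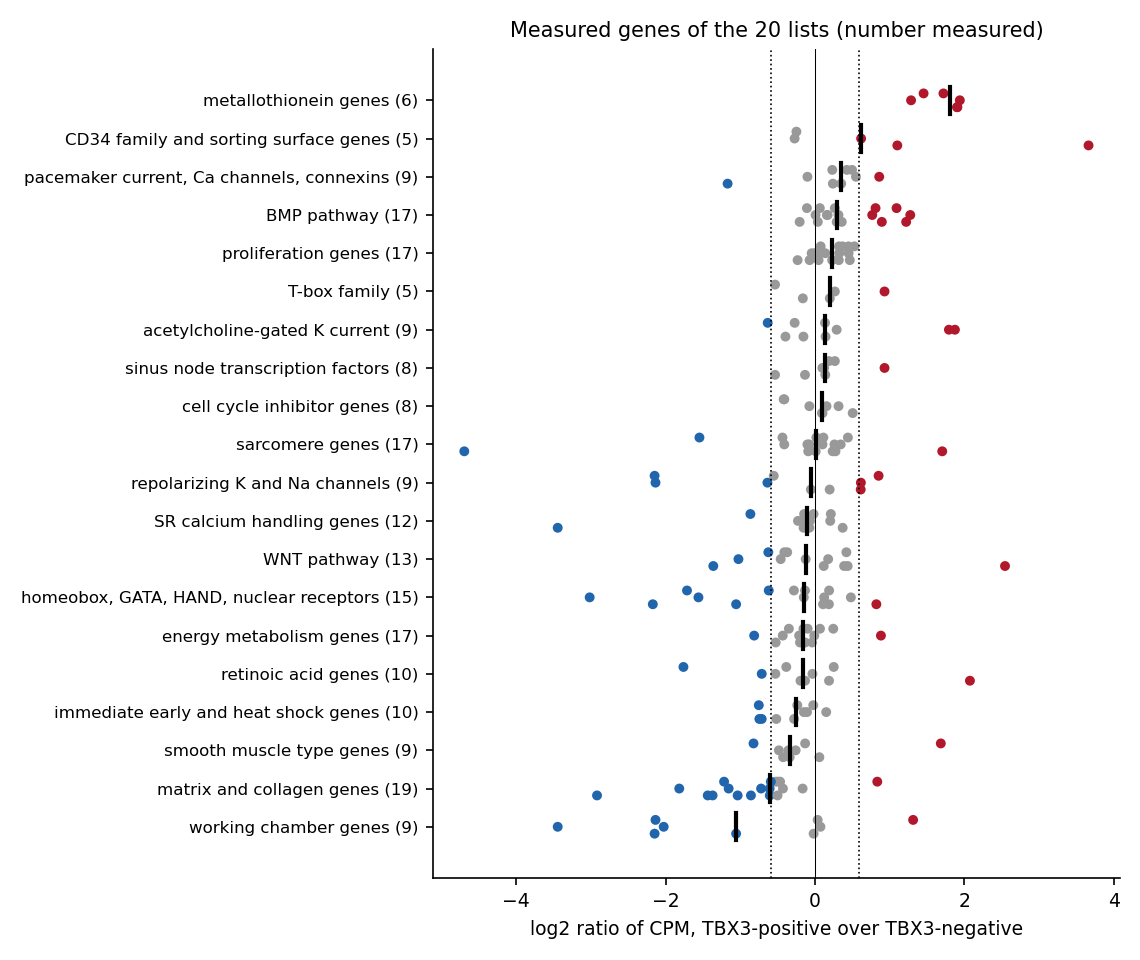
Log2 ratio of TBX3-positive over TBX3-negative CPM for each measured gene of 20 lists, with list names and the number measured on the left. Red points are at or above a ratio of 1.5, blue points at or below 0.667 (dotted lines), and black bars are list medians, which run from 1.81 for metallothionein genes to -1.06 for working chamber genes, where all measured genes had a median of 0.04. At a floor of 50 CPM the working chamber median turned to 0.054.

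Matrix genes were the largest group on the low side, with 12 of 19 measured genes lower and 1, COL2A1 (1.78-fold, 36.8 and 20.6 CPM, with 64.9 CPM in epithelial-like cells), higher. Over all measured genes, 4.09% were lower and 2.64% were higher. COL1A1 was at 65.5 and 177 CPM (0.370-fold), COL3A1 at 104 and 270 CPM (0.387-fold), SPARC at 91.1 and 212 CPM (0.430-fold) and VCAN at 146 and 265 CPM (0.552-fold). These counts were uneven over cells, since 10 cells held 46.6% of COL1A1 UMIs in the positive side and 31.2% in the negative side. The 7 fibroblast markers summed to 283 CPM in TBX3-positive, 534 CPM in TBX3-negative and 4036 CPM in epithelial-like cells. Within that list PDGFRA was higher, COL1A1 and COL3A1 lower, and DCN at 0.723 and POSTN at 0.892 lay between. The 6 epicardial markers summed to 15.1 and 24.1 CPM, against 56.3 CPM. The part of RNA from such cells in the matrix result was not tested.

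In the main comparison no cell cycle gene on the lists passed the fold, where 2.64% of all measured genes were higher and 4.09% lower. All 17 measured proliferation genes lay between, from 0.851 for PCNA to 1.44 for MKI67. With TNNT2 of at least 4000 CPM, however, MKI67 was at 1.76 and TOP2A at 1.56, both past the fold. All 8 measured cell cycle inhibitors lay between in the main comparison, from GADD45B at 0.748 to CDKN2D at 1.42. CDKN2A, which TBX3 is known to repress, was at 0.214 and 0.127 CPM, too low to compare. Of 10 immediate early and heat shock genes, JUNB (0.597-fold), ATF3 (0.610-fold) and DUSP1 (0.594-fold) were lower, against 4.09% of all measured genes, and FOS was at 0.929. With TNNT2 of at least 4000 CPM the 3 were at 0.676, 0.718 and 0.693, and with TBX3 of at least 1 UMI at 0.706, 0.679 and 0.671, so each lost its call. Epithelial-like cells were at 232 CPM of ATF3 and 95.3 CPM of DUSP1, above both sides.

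TBX3-negative cells were not alike. In thinned TBX3-negative cells, SERPINF1 was found in 54.2% (47.5 to 60.8) of the 227 cells with GJA5 and in 37.1% of those without, and NKX2-5 in 27.8% of cells with GJA5 and 12.2% without. SERPINF1 was also found in 61.0% (53.9 to 67.7) of the 205 cells with HOPX and in 36.3% of those without. SERPINI1 went with another gene, in 49.3% (46.4 to 52.3) of the 1135 cells with TNNI3 and 20.6% of those without, whereas it was found in 37.9% of cells with GJA5 (31.6 to 44.5) and 44.7% of those without (41.9 to 47.6). SLN and MGP were found together, with MGP in 67.9% (47.6 to 84.1) of only 28 cells with SLN and in 21.0% of those without.

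TBX3-positive cells also differed among themselves. TBX18 was found in 18.9% (11.6 to 28.3) of the 95 thinned TBX3-positive cells with NKX2-5 and in 53.5% (50.7 to 56.3) of those without. NECAB1 was found in 58.3% (50.3 to 65.9) of the 163 cells with CD34 and in 42.0% of those without, and CAPN3 in 66.3% and 51.9%. ISL1 was found in 37.4% of cells with CD34 (29.98 to 45.3) and 41.3% of those without, so those intervals overlap. For KCNJ5 and NECAB1, both among the highest ratios, NECAB1 was found in 43.7% of cells with KCNJ5 (39.7 to 47.8) and 44.1% of those without (40.5 to 47.7).

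The cardiomyocytes were also grouped into 12 clusters from their RNA, with TBX3 left out of the genes used. Of the 1350 TBX3-positive cells, 470 lay in cluster 0 and 330 in cluster 1, while 269 of the TBX3-negative cells lay in cluster 6, 261 in cluster 4 and 227 in cluster 2. The other genes of the comparison helped make these clusters, so ratios within them describe only what remains between cells of the same cluster. When both sides were weighted alike within each cluster, the 12 highest ratios ran from 1.88 to 2.85 and the 12 lowest from 0.372 to 0.726, against 3.26 to 4.82 and 0.132 to 0.303 over all cells. All 24 kept their direction, and COL1A2 at 0.726 and CRABP2 at 0.671 no longer passed the fold. The CD34 transcript was at 5.24-fold and the ratio of tag medians at 3.78. TBX5 stayed past the fold at 1.58, GJA5 at 0.481 and TNNI3 at 0.471, and MT2A was at 2.20.

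Other calls ended within clusters. NKX2-5 was at 0.667, just short of the fold, COL1A1 at 0.805, COL3A1 at 0.727, MEIS2 at 0.739, HAND1 at 1.39, MSX2 at 1.39, MB at 1.47, CACNA1C at 0.784, CKB at 0.776, RGS6 at 0.864, JUNB at 0.821 and DUSP1 at 0.892. ATF3 turned to 1.02. NPPA was at 0.781 within clusters, against 1.05 over all cells, and SHOX2 at 1.15.

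**Figure D5:**
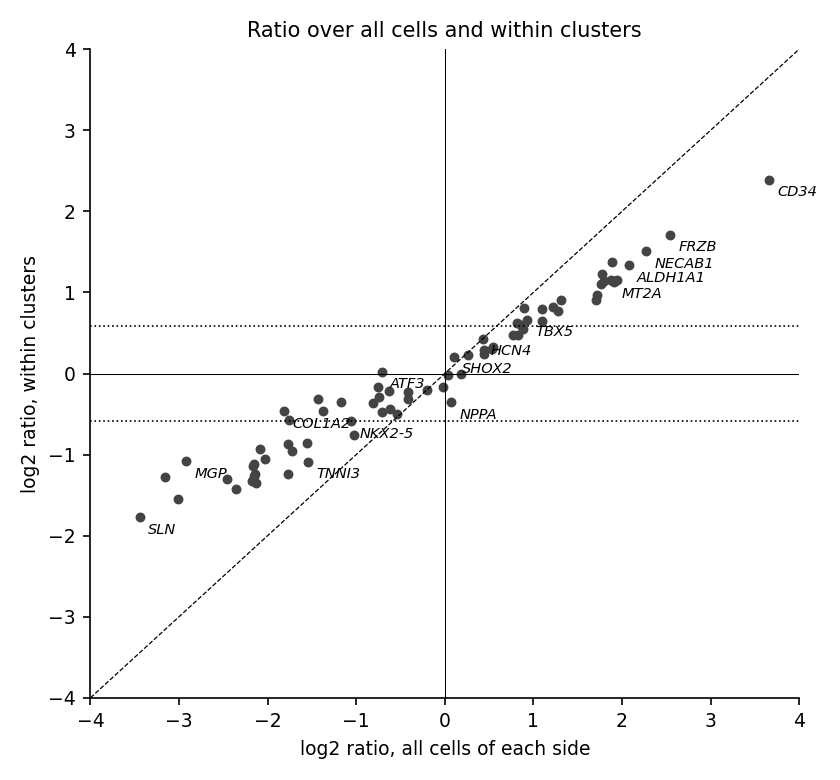
Log2 ratio of TBX3-positive over TBX3-negative CPM over all cells (horizontal) and with both sides weighted alike within each of 12 clusters (vertical), for the genes followed across settings. Most points lie closer to 0 than the dashed line of equality, with SHOX2, NPPA, ADM, HCN4 and FABP3 as the exceptions, dotted lines mark the fold of 1.5, and CD34 at 5.24-fold is the highest within clusters.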

How the data were processed

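RNA and CD34 antibody-tag libraries of 1 culture were measured in single cells. The deposited values are whole-number UMI counts per barcode for 36601 genes and the tag, per the file headers, with no normalization. The authors used Cell Ranger 6.1.2 and the build GRCh38, per the submitters' processing notes. Cells were filtered and split as the report states, and counts were summed per side, scaled to CPM and given as ratios with exact conditional 95% intervals (scipy 1.17.1). Shares of cells have exact Clopper-Pearson intervals, after thinning to 8000 UMIs, which left out 0 cells. PCR duplicates are removed by UMIs, yet intervals cover counting error only. With 1 culture there is no replicate, so no p-value was computed.

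Named genes are the 12 highest and 12 lowest ratios with at least 50 CPM in 1 side, leaving out TBX3, the genes of the rule, mitochondrial and ribosomal protein genes. The 20 gene lists and 7 marker lists were also named in part. Sides, lists and rules were chosen with earlier results of these data known, and the pairs of genes compared within a side, after their values were seen. Doublets were called with Scrublet in scanpy 1.11.5 on 12119 barcodes (1401 called, 11.6%, score over 0.115) and were kept, with their removal as an alternative. Clusters used 2000 variable genes, 30 components, 15 neighbours and Leiden resolution 1 (leidenalg 0.10.2). The calling of ratios was tested on simulated data. Gene positions and promoters come from RefSeq tables of GRCh38.p14, in which 4 of 10 members of the metallothionein list had a promoter. Some genes of the lists are not reported here.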

Additional observations from a re-analysis of the deposited data

How the results depend on the processing

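The main comparison gave 238 higher and 369 lower genes and a tag ratio of 5.79. Under 10 alternatives, the counts of higher genes ran from 208 to 311 and those of lower genes from 265 to 442: other scalings, depth limits or balancing, TNNT2 at 4000 CPM, no UMI of the capped epithelial markers, no cycling cells, no doublets, and TBX3 of at least 8 UMIs. The tag ratio under those that apply to it ran from 5.52 to 5.91, except at TBX3 of at least 8 UMIs, where it was 9.0. A floor of 50 CPM in place of 10 gave 89 higher and 106 lower genes, and a floor of 2 CPM gave 556 and 772, since the floor sets how many genes are tested. With TBX3 of at least 1 UMI as positive, 119 genes were higher and 218 lower, and the tag ratio was 2.64. At that setting ID1 at 1.449, SFRP5 at 0.768, MEIS2 at 0.784, CKB at 0.679 and RGS6 at 0.753 no longer passed the fold. Within clusters, 145 genes were higher and 125 lower, the tag ratio was 3.78, and 123 of the 238 and 122 of the 369 calls were shared; the cause was not tested. The ratio of tag means was 5.31. The median log2 ratio turned to 0.054 for working chamber genes at a floor of 50 CPM and to -0.24 for the CD34 and surface list at a floor of 2 CPM, where other genes are tested, and ATF3 turned to 0.023 within clusters, the cause of which was not tested. In no setting did a called gene pass the fold in the other direction. Of the 24 named genes, all passed the fold under every alternative that applies to single genes, except 22 within clusters. Depth limits genes under 10 CPM, which were not called. No paired analysis was possible because the series holds 1 culture without replicates.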

Other observations

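Genes under 50 CPM on both sides held larger ratios than those in the report. These were chosen after their values were seen, from the highest and lowest ratios at 10 to 50 CPM. LRRTM3, a synaptic adhesion protein, was at 45.1 and 7.07 CPM (6.38-fold) and was counted in 44.1% and 9.04% of cells. RSPO2, which enhances WNT signals, was at 18.8 and 3.43 CPM (5.48-fold), and MAB21L2 at 28.2 and 6.44 CPM (4.39-fold). On the low side, OSR1, a zinc finger factor of the inflow tract and second heart field, was at 3.002 and 34.5 CPM (0.0871-fold) and was counted in 3.26% and 25.4% of cells, and BCL2A1, an inhibitor of cell death, was at 2.23 and 24.6 CPM. SST, the hormone somatostatin, was at 1.84 and 35.4 CPM, but 10 cells held 94.97% of its UMIs in the negative side and 1 of them 381 of 835.

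Some of the genes that differed are neighbours in the genome (RefSeq, GRCh38.p14). TBX5 (chr12:114353911-114408442) is the nearest protein-coding gene counted within 500000 bases of TBX3 (chr12:114670255-114684175), and the antisense transcript TBX5-AS1, which overlaps TBX5 and whose reads may not be told apart from it, was at 64.9 and 42.9 CPM (1.51-fold). GNAO1 (chr16:56191489-56357444) lies in the same window as the metallothionein genes on chromosome 16. Of the 12 genes measured there, GNAO1, MT3, MT2A, MT1E, MT1G and MT1X were called higher, against 2.64% of all measured genes. These are the calls already given above. NUDT21, OGFOD1 and BBS2, which lie between GNAO1 and MT3, had ratios of 1.07, 0.994 and 1.075, and NUP93 and HERPUD1 beyond MT1X had 1.06 and 1.002.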
